A study of Mus musculus with 4 samples.

Results

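The comparison described here sets B16F10 melanoma cells taken from spheroids against the same line grown as a 2D monoculture. B16F10 is a pigmented mouse melanoma line of C57BL/6 origin. The members of the comparison are the genes whose mean over the 2 libraries reached 10 CPM (the usual unit of read counts scaled to library size), a limit that 9270 of the 24527 gene symbols passed (37.8%). These genes held 98.9% of the reads of the spheroid library and 98.8% of those of the 2D monoculture. The limit is on the mean, so a gene seen in only 1 of the libraries could pass through it alone, and such a gene had to differ.

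RNA was sequenced from 4 libraries, 1 per condition. The methods speak of replicate RNA samples, and whether RNA of several cultures was pooled in a library is not stated. According to the methods of the study, the spheroids were hanging-drop cultures of a green fluorescent B16F10 line (Linterna) with red fluorescent NIH/3T3 mouse fibroblasts, the 2D co-culture was the same pair of lines, and the 2D monoculture was B16F10 alone. Live green cells were sorted from these cultures, which was to leave the fibroblasts behind. The remaining library is labelled as a snap frozen tumor grown in a mouse, whereas the methods describe cells sorted from tumors. The labels give the genotype of all 4 libraries as WT and name no other treatment or allele. The age of the spheroids at RNA isolation is not stated. Spheroids were grown in DMEM and B16F10 cells were kept in RPMI, so the growth medium, the presence of fibroblasts and the spheroid form cannot be told apart in a comparison of spheroid and 2D monoculture. The 2D co-culture, whose medium is not stated, and the tumor are given beside them for each gene. Every comparison with the 2D monoculture shares that 1 library as its control.

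No difference below has a replicate check, since each group is 1 library, and no p-value is given. A ratio is the log2 of spheroid over 2D monoculture CPM, each with 1 CPM added, which understates the difference of genes of low level. Genes are called higher or lower where this ratio passed 2-fold. Totals of the 4 libraries lay between 118896900 and 150028663 reads, and 95% intervals, where printed, are exact binomial intervals of the ratio without the added CPM that cover counting error only. All 10 melanocyte markers passed the limit of 10 CPM, with a summed level of 11525 CPM in spheroid cells against 17129 CPM in 2D monoculture. Of 14 fibroblast markers, Pdgfrb alone passed it, and their summed level was 47.6 CPM in spheroid cells, 25.9 in 2D monoculture, 986 in 2D co-culture and 3538 in tumor. Col1a2, a chain of the main fibrillar collagen of fibroblasts, had 4.05 CPM in spheroid cells, 2.97 in 2D monoculture and 514 in 2D co-culture. Col6a1, Col6a2 and Col3a1 had 3.38, 2.36 and 2.28 CPM in spheroid cells against 0.161, 0.028 and 0.274 in 2D monoculture. Others were lower in spheroid cells, among them Dcn, Pdgfra and Postn (0.110, 0.242 and 0.889 CPM against 0.407, 0.793 and 2.11). Of the myeloid markers, Cd68 reached 22.5 CPM in spheroid cells and 27.5 in 2D monoculture, of a sum of 27.3 and 30.0 CPM over the 12 markers of that list. Endothelial markers summed to 333 CPM in spheroid cells and 288 in 2D monoculture, almost all of it Eng, a TGF-beta co-receptor. Markers of lymphoid cells, keratinocytes and fat cells summed to at most 1.17 CPM per list in both libraries. The 4 erythroid markers were at 0 in all 4 libraries, the tumor included, so they do not show whether blood cells were present. Fibroblast markers were thus low in both libraries compared, and higher in the 2D co-culture. Their part in the differences below was not tested. In the tumor library, summed levels were also high for markers of myeloid cells (2329 CPM), skeletal muscle (4599 CPM) and fat cells (728 CPM). Tumor values below are therefore those of a mixed library and not of melanoma cells alone.

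Cells in a spheroid lie in layers. As background, oxygen and nutrients reach the inner layers by diffusion, and spheroid cells are known to respond through a few well-described programmes. Shortage of oxygen stabilises the factor HIF-1, which induces genes of glycolysis, angiogenesis and pH control. Shortage of amino acids and stress in the endoplasmic reticulum lead to translation of the factor ATF4, which induces genes of amino acid synthesis and uptake. Growth of cells in culture rests on DNA replication, mitosis and the assembly of ribosomes.

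In all, 1087 of 9270 genes were over 2-fold higher in the spheroid (11.7%) and 1860 were over 2-fold lower (20.1%). Over 4-fold, 117 genes were higher and 467 lower. The median ratio was 0.11 with quartiles of -0.77 and 0.66, and the median absolute ratio was 0.69. Lower genes thus outnumbered higher ones, and more so among the large differences. This split moved with the scaling of the libraries: the share of calls on the higher side was 36.9% with the scaling used, 28.7% with total counts and 46.6% with the upper quartile (1426 higher and 1633 lower). The last 2 settings moved the median ratio of all genes by -0.11 and 0.12, respectively. Ratios nearer to 0 than these shifts are given without a direction.

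**Figure D1:**
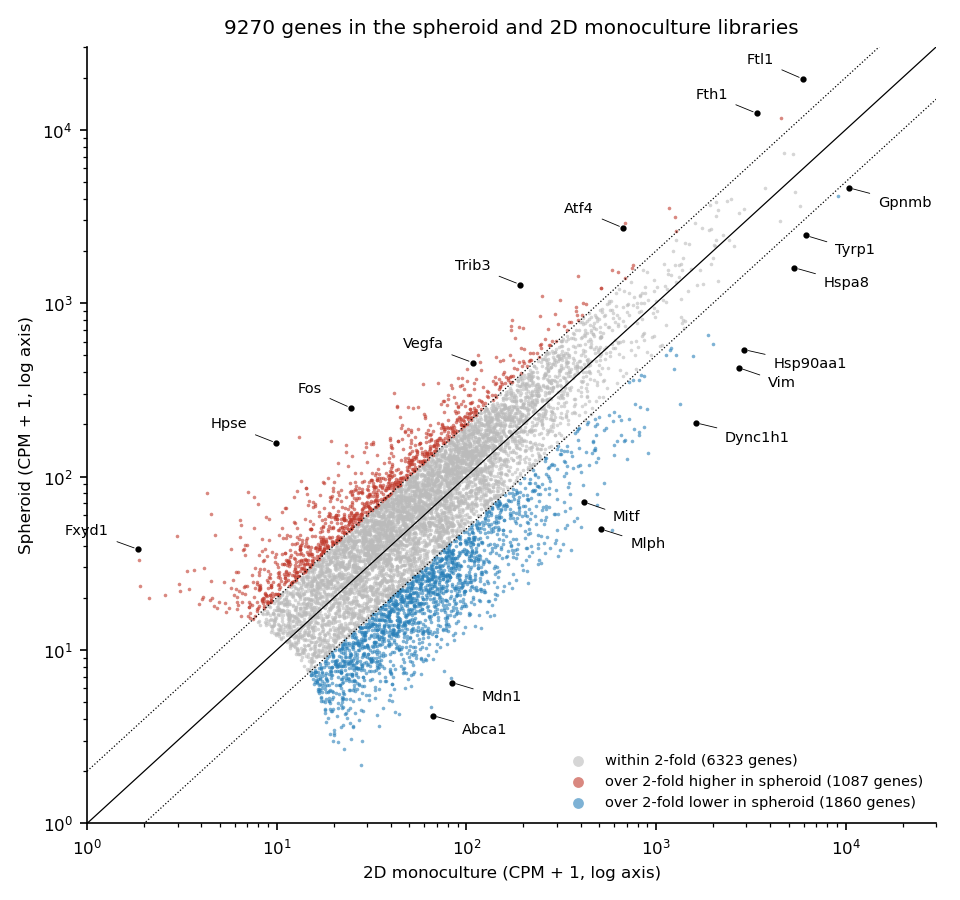
CPM with 1 added of each of 9270 genes in the 2D monoculture (horizontal, log axis) and in the spheroid (vertical, log axis), 1 library each, with the solid line at equality and dotted lines at 2-fold. Of these genes, 1087 lie above the upper dotted line, among them Ftl1, Trib3 and Hpse, and 1860 lie below the lower one, among them Vim, Mlph and Abca1.

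Ratios moved with the base composition and the length of the transcript. Across 9250 genes with an annotated transcript, Spearman's correlation of the ratio was 0.50 with GC content, -0.440 with transcript length and, over 9132 genes, -0.438 with coding length. Genes are not independent replicates, all values share the same 2 libraries, and GC content and length were themselves correlated at -0.276. The tenth of genes with a GC content of up to 42.2% had a median ratio of -0.64, with 2.81% of genes higher and 36.0% lower. In the tenth with a GC content over 58.3% the median was 0.74, with 31.1% higher and 0.32% lower. By length, the median went from 0.65 in transcripts of up to 1312 bases to -1.13 in those over 6776 bases. Of the genes split into 3 parts by GC content and by length, those of high GC content and short length had 25.2% higher and 0.931% lower, and those of low GC content and long length had 1.27% higher and 50.8% lower. The higher genes had a median GC content of 55.6% and a median length of 2347 bases, and the lower genes 46.1% and 4843 bases.

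The other libraries had trends of their own against the same 2D monoculture. In the 2D co-culture the correlation was 0.225 with GC content and -0.417 with transcript length. In the tumor it was -0.503 with GC content and -0.238 with length. The length trend therefore had the same sign in the 3 libraries, whereas the trend with GC content had opposite signs in the spheroid and the tumor. Whether library preparation, RNA integrity or the cells differed along GC content and length was not tested.

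**Figure D2:**
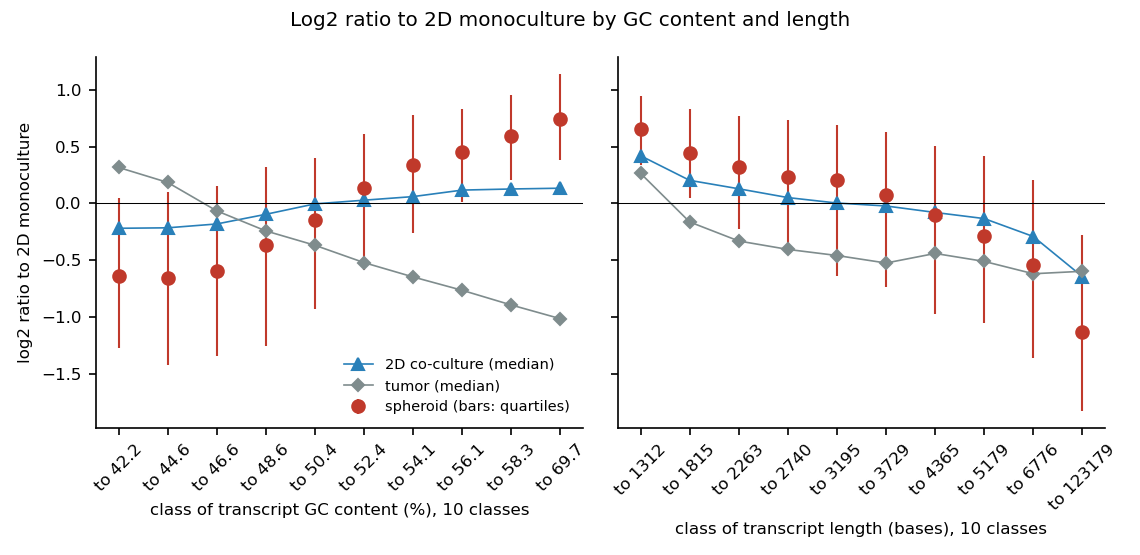
Median log2 ratio to the 2D monoculture (vertical) over 10 classes of equal size by transcript GC content in percent (left) and by transcript length in bases (right), each class named by its upper bound, with bars for the quartiles of the spheroid. The spheroid medians go from -0.64 to 0.74 over GC content and from 0.65 to -1.13 over length, and those of the tumor go down over GC content.

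A second value is therefore given beside the ratio for many lists and genes, namely the ratio after the median of its class of GC content and length was removed (100 classes), called the corrected ratio below. After this correction 910 of 9250 genes were over 2-fold higher (9.84%) and 1080 over 2-fold lower (11.7%), and the median absolute ratio was 0.50. Of the 1087 genes called higher, 431 were also called after the correction (39.7%), as were 886 of the 1860 called lower (47.6%), and 0 genes changed side. The correction takes out any real difference shared by genes of like GC content and length, and it rests on the longest annotated transcript of a gene, which need not be the one expressed.

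Lists of genes by function split into those whose median kept its size after the correction and those whose median did not. ATF4 targets, immediate early genes and amino acid transporters kept medians of at least 1.10. DNA replication and ribosome biogenesis kept medians of -1.14 or lower. Double-strand break repair went from -1.87 to -1.14. The median of cytoplasmic ribosomal proteins, short genes with a median transcript of 942 bases, went from 0.66 to 0.06. At the other end, chromatin regulators with long coding sequences, of a median 9061 bases, went from -1.52 to -0.41. Counts of higher and lower genes in every list below stand beside shares of 11.7% higher and 20.1% lower over all members. After the correction these shares were 9.84% and 11.7%.

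**Figure D3:**
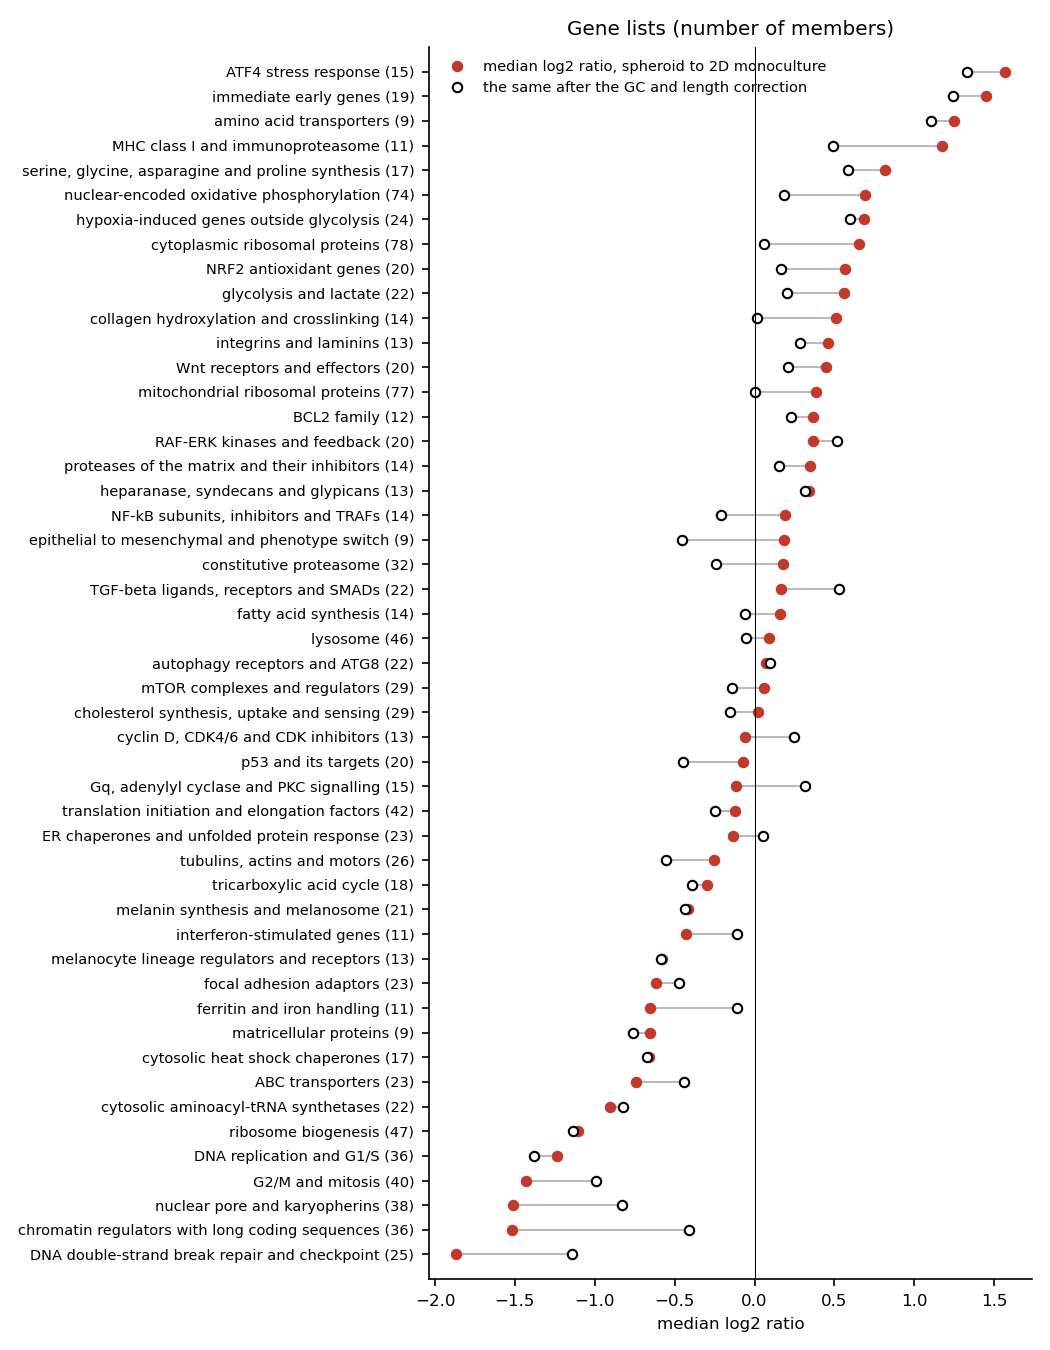
Horizontal axis: median over each gene list of the log2 ratio, spheroid over monoculture, for lists with at least 9 members, before (filled) and after (open) the correction for GC content and length, with the number of members in parentheses. The ATF4 list moves from 1.57 to 1.33 and DNA replication from -1.23 to -1.38, whereas cytoplasmic ribosomal proteins move from 0.66 to 0.06.

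The list of the ATF4 stress response had the highest median ratio of the lists with at least 9 members. Of its 15 genes that passed the limit, 10 were higher and 0 lower, against 11.7% and 20.1% of all members, and its median was 1.57 (1.33 corrected). Atf4 itself, which encodes the factor, had 2713 CPM in spheroid cells against 671 in 2D monoculture, 1229 in 2D co-culture and 407 in tumor, a ratio of 2.01 (95% interval 2.01 to 2.03). Trib3, a pseudokinase that restrains the response, had 1279 CPM in spheroid cells, 191 in 2D monoculture, 163 in 2D co-culture and 34.5 in tumor (ratio 2.73). The spheroid stood apart from the other 3 libraries for both genes. Ddit3, which encodes the stress factor CHOP, had 499 CPM in spheroid cells, 168 in 2D monoculture, 141 in 2D co-culture and 58.9 in tumor (ratio 1.57). Ppp1r15a, whose product helps to remove the phosphate from eIF2alpha, had 699.8 CPM in spheroid cells against 171 in 2D monoculture, 148 in 2D co-culture and 18.2 in tumor (ratio 2.02). Chac1, an enzyme that breaks down glutathione, had 335 CPM in spheroid cells, 82.0 in 2D monoculture, 74.5 in 2D co-culture and 22.6 in tumor (ratio 2.02). In each of these the spheroid was the highest library and the tumor the lowest. Further members of the list were Jdp2 (ratio 2.40, 1.71 corrected), Nupr1 (2.26, 1.59 corrected) and Cebpb (1.74, 0.91 corrected). Atf3, another stress-induced factor, did not pass 2-fold, with 195 CPM in spheroid cells, 173 in 2D monoculture, 30.3 in 2D co-culture and 21.7 in tumor (ratio 0.17). Fgf21 and Gdf15, secreted products of the same response named after their values were seen, were under the limit on the mean, with 14.5 CPM in the spheroid against 0.365 CPM for Fgf21 and 7.04 CPM against 0.618 CPM for Gdf15. Of the other list genes under it, Vldlr had 5.41 CPM against 4.88 CPM, Soat2 1.49 CPM against 1.018 CPM and Stc2 0.022 CPM against 0.

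The element through which ATF4 and its partners of the C/EBP family bind, TGATGNAA, was looked for on both strands of the 250 bases upstream of the start in RefSeq promoters (GRCm38.p6), which cover 7341 of the 9270 members. It was in 1134 of all 32851 promoters (3.45%) and in 169 of the 9435 promoters of members (1.79%). Counted by gene, 3.91% of all genes and 2.15% of members held it. Of the ATF4 list, 4 of 14 genes with a promoter held it, as did 4 of 15 genes of serine, glycine, asparagine and proline synthesis. The following windows show it in genes of high ratio and, in Atf3, in a gene that did not pass 2-fold, written along the gene with the element in capitals, as TGATGNAA or its reverse complement.
Pycr1: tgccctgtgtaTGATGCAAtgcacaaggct
Jdp2: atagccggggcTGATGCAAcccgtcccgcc
Pck2: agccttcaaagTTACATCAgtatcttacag
Nupr1: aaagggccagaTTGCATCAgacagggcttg
Chac1: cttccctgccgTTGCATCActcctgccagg
Atf3: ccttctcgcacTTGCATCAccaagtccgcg

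The windows lie upstream of the annotated start at chr11:120643833-120643862 for Pycr1 (minus strand, ratio 2.61), chr12:85599372-85599401 for Jdp2 (plus strand, ratio 2.40), chr14:55540152-55540181 for Pck2 (plus strand, ratio 2.28), chr7:126625562-126625591 for Nupr1 (minus strand, ratio 2.26), chr2:119351038-119351067 for Chac1 (plus strand, ratio 2.02) and chr1:191183425-191183454 for Atf3 (minus strand, ratio 0.17). Asns, asparagine synthetase, held the element as well (ratio 0.81), as did Got1 (0.13), Slc7a11 (-0.84) and the tRNA synthetase genes Gars (-0.07), Aars (-0.91) and Tars (-1.83), so genes with these letters lay on both sides. In the windows of Atf4, Trib3 and Ddit3 they were not found. A match describes these letters and is not a measured binding site.

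Enzymes that make non-essential amino acids were mixed. Of 17 genes, 6 were higher and 4 lower, and the median was 0.81 (0.59 corrected). Pycr1, the last enzyme of proline synthesis, had 74.8 CPM in spheroid cells against 11.4 in 2D monoculture, 15.97 in 2D co-culture and 6.97 in tumor (ratio 2.61). Pck2, the mitochondrial PEP carboxykinase, had 344 CPM in spheroid cells, 70.3 in 2D monoculture, 174 in 2D co-culture and 30.3 in tumor (ratio 2.28). Phgdh, the first enzyme of serine synthesis, had 711 CPM in spheroid cells, 269 in 2D monoculture, 727 in 2D co-culture and 167 in tumor (ratio 1.40). In Phgdh spheroid and 2D co-culture were close, whereas in Pycr1 and Pck2 the spheroid was highest. Lower members of the list included enzymes that carry folate one-carbon units. Mthfd1, the cytosolic one, had 23.7 CPM in spheroid cells against 104 in 2D monoculture, 103 in 2D co-culture and 61.8 in tumor (ratio -2.09). Mthfd1l had a ratio of -1.78 (-1.74 corrected) and Aldh1l2 -1.41 (-0.59 corrected).

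Amino acid transporters had 5 of 9 genes higher and 0 lower, with a median of 1.25 (1.10 corrected). Slc7a5, the large neutral amino acid exchanger LAT1, had 796 CPM in spheroid cells, 173 in 2D monoculture, 460.2 in 2D co-culture and 80.1 in tumor (ratio 2.19). Its partner chain Slc3a2 had 1504 CPM in spheroid cells, 631 in 2D monoculture, 733 in 2D co-culture and 169 in tumor (ratio 1.25). Slc1a5, a glutamine carrier, had 626 CPM in spheroid cells against 179 in 2D monoculture, 303 in 2D co-culture and 96.0 in tumor (ratio 1.80). For the 3 genes the spheroid was highest, the 2D co-culture next and the tumor lowest. Slc7a11, the cystine carrier and also a known ATF4 target, had 234 CPM in spheroid cells, 419.7 in 2D monoculture, 115 in 2D co-culture and 12.9 in tumor. Its ratio was within 2-fold and changed sign with the correction (0.43).

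The enzymes that charge tRNAs, several of which are known ATF4 targets, had more lower than higher genes. Of 22 genes, 1 was higher and 7 were lower, and the median was -0.90 (-0.82 corrected). Vars, for valine, had 607 CPM in spheroid cells, 297 in 2D monoculture, 540.1 in 2D co-culture and 93.7 in tumor (ratio 1.03). Eprs, the glutamate and proline enzyme, had 67.6 CPM in spheroid cells against 489 in 2D monoculture, 70.5 in 2D co-culture and 345 in tumor (ratio -2.84). Lars, for leucine, had 24.2 CPM in spheroid cells, 117 in 2D monoculture, 28.3 in 2D co-culture and 95.8 in tumor (ratio -2.23). In Eprs and Lars the spheroid and 2D co-culture libraries were close.

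Genes of the endoplasmic reticulum did not move as 1 group. Of 23 genes, 5 were higher and 5 lower. Herpud1, part of the degradation machinery of the endoplasmic reticulum, had 296 CPM in spheroid cells, 79.3 in 2D monoculture, 208 in 2D co-culture and 64.2 in tumor (ratio 1.89). Xbp1, a factor of the unfolded protein response, had 468 CPM in spheroid cells against 174 in 2D monoculture, 268 in 2D co-culture and 172 in tumor (ratio 1.42). Hspa5, the main chaperone of this compartment (BiP), had 2323 CPM in spheroid cells, 2421 in 2D monoculture, 2747 in 2D co-culture and 1858 in tumor (ratio -0.06). Hsp90b1, another abundant chaperone there, had 579 CPM in spheroid cells, 1995 in 2D monoculture, 845 in 2D co-culture and 2189 in tumor. Hspa5 therefore differed little while Hsp90b1 had a ratio of -1.78 (-1.23 corrected).

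Of the genes induced by hypoxia outside glycolysis, 24 of 35 in the table passed the limit, 7 were higher and 1 lower, and the median was 0.69 (0.60 corrected). This list had a median GC content of 48.6% and a median transcript of 3355 bases, both near those of all members. Vegfa, the angiogenic growth factor, had 453 CPM in spheroid cells against 107 in 2D monoculture, 167 in 2D co-culture and 177 in tumor (ratio 2.07). Adm, a vasoactive peptide, had 104 CPM in spheroid cells, 30.8 in 2D monoculture, 52.0 in 2D co-culture and 90.8 in tumor (ratio 1.73). Car9, a carbonic anhydrase that controls pH, had 65.2 CPM in spheroid cells, 10.1 in 2D monoculture, 18.3 in 2D co-culture and 175 in tumor (ratio 2.57). The tumor was above the spheroid for Car9 and under it for Vegfa. Ndrg1, a stress-responsive gene, had 249.6 CPM in spheroid cells against 48.0 in 2D monoculture, 39.3 in 2D co-culture and 71.9 in tumor (ratio 2.36). Bnip3, which acts in mitophagy, had 233 CPM in spheroid cells, 110.2 in 2D monoculture, 130 in 2D co-culture and 499.7 in tumor (ratio 1.07). Egln3, an oxygen-sensing prolyl hydroxylase named after its values were seen, was just under the limit on the mean, with 16.4 CPM in spheroid cells and 1.68 in 2D monoculture. Of the other list genes under it, Epas1 had 10.9 CPM against 7.09, Ankrd37 5.25 against 1.87 and Ndufa4l2 2.34 against 0.274. Car12 was lower (0.213 against 0.695), and Angptl4, Edn1, Igfbp3, Lox, Stc2 and Cox4i2 were under 1 CPM in both libraries.

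Ddit4, an inhibitor of mTOR that ATF4 also induces, had a ratio of 1.23. The following members of the hypoxia list were within 2-fold or lower. Hif1a, which encodes the oxygen-regulated subunit and is controlled mostly at the protein, had 109 CPM in spheroid cells, 215 in 2D monoculture, 153 in 2D co-culture and 321 in tumor. Kdm3a, a histone demethylase, had 18.6 CPM in spheroid cells against 85.1 in 2D monoculture, 39.0 in 2D co-culture and 115 in tumor (ratio -2.14). Plod2 and P4ha1, enzymes that hydroxylate collagen, had ratios of -0.08 and -0.22, and both were highest in the tumor.

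The core of the hypoxia response element, ACGTG, was looked for in the same promoters and on both strands. Counted by gene, this short motif was in 18.5% of all genes with a promoter and in 26.9% of members, and in 12 of the 19 hypoxia genes and 11 of the 21 glycolysis genes that had a promoter. The following windows show it in 5 genes over 2-fold higher, with the motif or its reverse complement in capitals.
Car9: tatttccgatgCACGTacagcccgtcc
Vegfa: gagtgcgtgccCACGTcagagagcaac
Ddit4: gaacgttgcgaACGTGcgcccggtgcc
Slc16a3: aggcagcggtgACGTGcgcgggggacg
Aldoa: gtggctcgagtCACGTcctagcggggc

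The windows lie upstream of the annotated start at chr4:43506997-43507023 for Car9 (plus strand, ratio 2.57), chr17:46025359-46025385 for Vegfa (minus strand, ratio 2.07), chr10:59951942-59951968 for Ddit4 (minus strand, ratio 1.23), chr11:120949029-120949055 for Slc16a3 (plus strand, ratio 1.58) and chr7:126799365-126799391 for Aldoa (minus strand, ratio 1.35). In Hif1a, Ldha and Hk2, whose ratios were -0.98, -0.27 and -1.04, the motif was present as well.

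Glycolysis and lactate genes had 4 of 22 genes higher and 2 lower, with a median of 0.56 (0.20 corrected). Aldoa, the main aldolase, had one of the 8 largest CPM differences of all members, with 11688 CPM in spheroid cells, 4581 in 2D monoculture, 4422 in 2D co-culture and 3558 in tumor (ratio 1.35). Slc16a3, the lactate exporter MCT4, had 467 CPM in spheroid cells, 155 in 2D monoculture, 236 in 2D co-culture and 180.2 in tumor (ratio 1.58). Eno2, an enolase known from neurons, had 216 CPM in spheroid cells against 59.5 in 2D monoculture, 26.6 in 2D co-culture and 6.59 in tumor (ratio 1.85). Slc2a1, the glucose carrier GLUT1, had 248 CPM in spheroid cells, 127 in 2D monoculture, 199 in 2D co-culture and 132 in tumor (ratio 0.97), just short of 2-fold. Other steps were lower or differed little. Hk2, a hexokinase, had 65.1 CPM in spheroid cells, 135 in 2D monoculture, 134 in 2D co-culture and 171 in tumor. Pfkp, a phosphofructokinase, had 133 CPM in spheroid cells against 312 in 2D monoculture, 134 in 2D co-culture and 217 in tumor (ratio -1.22). Ldha, lactate dehydrogenase, had 2138 CPM in spheroid cells, 2573 in 2D monoculture, 2892 in 2D co-culture and 3596 in tumor. The higher genes therefore lie at scattered steps of the pathway. Eno1, the main enolase, had at most 1.15 CPM in all 4 libraries, and genes with near-identical copies in the genome are uncertain here, since the treatment of reads that match several places is not stated.

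**Figure D4:**
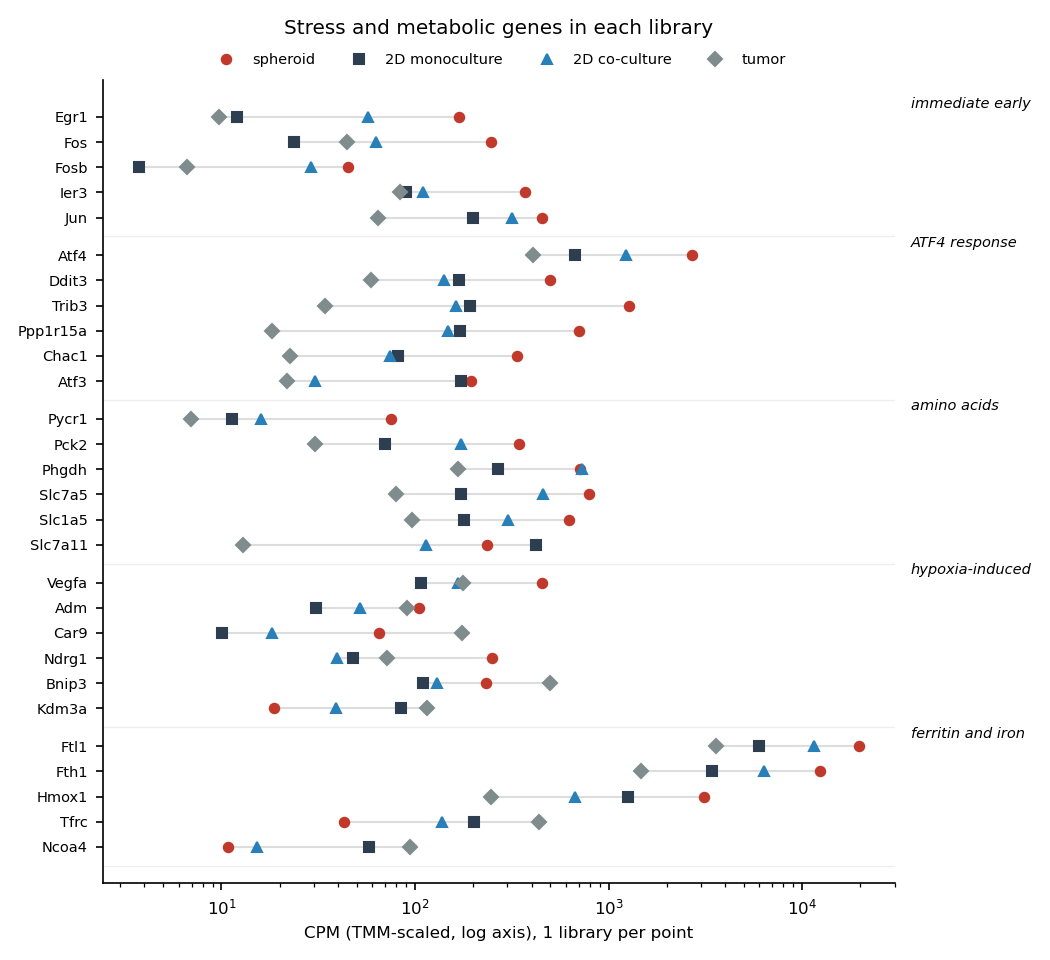
CPM (horizontal, log axis) of genes of 5 functional lists in the 4 libraries, 1 point per library. The spheroid is the highest library for Egr1, Fos, Atf4, Trib3, Vegfa, Ftl1 and Fth1, and the lowest for Kdm3a, Tfrc and Ncoa4.

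Immediate early genes, which cells transcribe within minutes of growth factor signals, stress or handling, had 13 of 19 members higher and 0 lower, with a median of 1.45 (1.24 corrected). Egr1, a zinc finger factor, had 168 CPM in spheroid cells, 12.1 in 2D monoculture, 57.0 in 2D co-culture and 9.71 in tumor, a ratio of 3.69 (95% interval 3.73 to 3.87). Fos, a subunit of AP-1, had 247 CPM in spheroid cells against 23.7 in 2D monoculture, 63.2 in 2D co-culture and 44.4 in tumor (ratio 3.33). Fosb had 45.1 CPM in spheroid cells, 3.73 in 2D monoculture, 29.1 in 2D co-culture and 6.64 in tumor (ratio 3.29). In these 3 genes the 2D co-culture lay between the spheroid and the 2D monoculture. Ier3 had 369 CPM in spheroid cells, 89.5 in 2D monoculture, 110.4 in 2D co-culture and 83.7 in tumor (ratio 2.03). Jun, the partner of Fos, had 451 CPM in spheroid cells against 200.4 in 2D monoculture, 316 in 2D co-culture and 64.4 in tumor (ratio 1.17). Klf6 and Klf10 differed little, with ratios of 0.08 and -0.14. How long cells of each culture were handled before lysis is not stated, and its part in the result was not tested.

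Genes that ERK signalling induces, several of which damp it, had 4 of 10 members higher and 0 lower. Dusp6, a phosphatase of ERK, had 153 CPM in spheroid cells, 55.4 in 2D monoculture, 123 in 2D co-culture and 129 in tumor (ratio 1.45). Dusp8, which acts on JNK and p38, had 160.5 CPM in spheroid cells, 38.4 in 2D monoculture, 26.1 in 2D co-culture and 3.95 in tumor (ratio 2.04). Of 10 kinases of the pathway, 1 was higher and 0 lower, with a median of -0.17 (0.40 corrected). The higher one, Mapk3 (ERK1), had 276 CPM in spheroid cells against 115 in 2D monoculture, 117 in 2D co-culture and 86.5 in tumor (ratio 1.26). Its corrected ratio was 0.57.

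Of 11 genes of iron handling, 4 were higher and 3 lower, and the iron store of the cell, ferritin, gave the largest CPM differences of the higher genes. Ftl1, the light chain, had 19613 CPM in spheroid cells, 5958 in 2D monoculture, 11532 in 2D co-culture and 3582 in tumor (ratio 1.72). Fth1, the heavy chain, had 12424 CPM in spheroid cells, 3408 in 2D monoculture, 6346 in 2D co-culture and 1471 in tumor (ratio 1.87). Both chains have processed copies in the genome, and their counts carry the same uncertainty as Eno1. Hmox1, haem oxygenase, had 3123 CPM in spheroid cells against 1261 in 2D monoculture, 670.2 in 2D co-culture and 247 in tumor (ratio 1.31). Tfrc, the transferrin receptor that brings iron in, went the other way, with 43.2 CPM in spheroid cells, 203 in 2D monoculture, 137 in 2D co-culture and 434 in tumor (ratio -2.20). Ncoa4, the receptor that carries ferritin to autophagy, had 10.8 CPM in spheroid cells, 57.7 in 2D monoculture, 15.2 in 2D co-culture and 93.9 in tumor (ratio -2.32). The corrected ratios were 1.05 for Ftl1, 1.38 for Fth1, -1.34 for Tfrc and -1.29 for Ncoa4.

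Among antioxidant targets of NRF2, 5 of 20 genes were higher and 1 lower, and the median was 0.56 (0.17 corrected). Gsta4, a glutathione transferase, had 101 CPM in spheroid cells against 20.1 in 2D monoculture, 28.0 in 2D co-culture and 82.9 in tumor (ratio 2.27). Gstp1, another such enzyme with 1 of the 8 largest CPM differences, had 3549 CPM in spheroid cells, 1171 in 2D monoculture, 1555 in 2D co-culture and 451 in tumor (ratio 1.60). G6pdx, the first enzyme of the pentose phosphate pathway, had 131 CPM in spheroid cells, 361 in 2D monoculture, 163 in 2D co-culture and 90.4 in tumor (ratio -1.45). Sqstm1, the autophagy receptor p62, had 7323 CPM in spheroid cells against 4733 in 2D monoculture, 2792 in 2D co-culture and 701 in tumor (ratio 0.63), under 2-fold. Of the autophagy genes, Tax1bp1, another receptor, had 44.8 CPM in spheroid cells, 237 in 2D monoculture, 33.3 in 2D co-culture and 222 in tumor (ratio -2.38), and Nbr1 a ratio of -2.11 (-1.36 corrected). Tfeb and Tfe3, factors that drive lysosomal genes, had ratios of 1.43 and 1.27. After the correction, 0 of the 22 autophagy genes were over 2-fold higher and 3 were over 2-fold lower. The 46 lysosomal genes themselves had 7 higher and 5 lower, against 11.7% and 20.1% of all members. Atp6v1a, a subunit of the proton pump, had a ratio of -2.19.

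Nuclear genes of oxidative phosphorylation had 18 of 74 members higher, 1 lower and a median of 0.69, which went to 0.19 after the correction. The list has a median transcript of 913 bases. Ndufb9 of complex I had 549.7 CPM in spheroid cells, 248 in 2D monoculture, 296 in 2D co-culture and 266 in tumor (ratio 1.15). Cox6c of complex IV had 514 CPM in spheroid cells against 223 in 2D monoculture, 349 in 2D co-culture and 289 in tumor (ratio 1.20). Ndufs1, the largest subunit of complex I, was the only gene of the list over 2-fold lower, with 60.7 CPM in spheroid cells, 219.5 in 2D monoculture, 119 in 2D co-culture and 263 in tumor (ratio -1.84). Chchd10, a small mitochondrial protein outside the list and 1 of the 8 genes of largest CPM difference, had 2901 CPM in spheroid cells, 685 in 2D monoculture, 708 in 2D co-culture and 172 in tumor (ratio 2.08), with a corrected ratio of 1.45. Of 18 genes of the tricarboxylic acid cycle, 0 were higher and 3 lower, with Fh1 (fumarase) at a ratio of -1.40. Mitochondrially encoded transcripts were not analysed here.

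Cytoplasmic ribosomal proteins had 8 of 78 members higher and 0 lower, and mitochondrial ribosomal proteins 5 of 77 higher and 0 lower. Over all members, 11.7% were higher and 20.1% lower. The corrected medians of the cytoplasmic and mitochondrial lists were 0.06 and 0.00. Of 86 cytoplasmic genes in the table, 78 passed the limit. Among those under it, Rpl26 had at most 0.007 CPM in the 4 libraries, Rpl30 at most 4.20 and Rps27 at most 7.64. How reads that match several places bear on this list was not tested. The highest ratio of the cytoplasmic list was that of Rps20, which had 901 CPM in spheroid cells against 378 in 2D monoculture, 704 in 2D co-culture and 566 in tumor (ratio 1.25). The lowest was that of Rpl4, with 796 CPM in spheroid cells, 1391 in 2D monoculture, 1338 in 2D co-culture and 1933 in tumor (ratio -0.80). The median of the cytoplasmic list was 0.66 for spheroid cells and 0.76 for 2D co-culture, both against the same 2D monoculture. The 2 parts of the proteasome had different medians. The 14 genes of the 20S core had a median of 0.72 with 0 over 2-fold (0.11 corrected). The 18 genes of the 19S regulator had a median of -0.46 with 4 lower (-0.76 corrected, with 7 lower). Psmd1, a large scaffold of the regulator, had 59.8 CPM in spheroid cells, 289.8 in 2D monoculture, 106 in 2D co-culture and 199 in tumor (ratio -2.26).

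Genes that assemble ribosomes, a list apart from the ribosomal proteins, were often lower. Of 47 nucleolar factors, 0 were higher and 25 lower, with a median of -1.11 (-1.14 corrected). Utp20, of the small subunit processome, had 3.69 CPM in spheroid cells against 63.7 in 2D monoculture, 12.8 in 2D co-culture and 40.4 in tumor, a ratio of -3.79 (95% interval -4.24 to -3.98). Mdn1, the AAA ATPase of large subunit assembly, had 5.49 CPM in spheroid cells, 83.2 in 2D monoculture, 10.8 in 2D co-culture and 47.7 in tumor (ratio -3.70). Heatr1 had 6.54 CPM in spheroid cells, 75.4 in 2D monoculture, 15.3 in 2D co-culture and 63.5 in tumor (ratio -3.34). These 3 genes have long transcripts, and their corrected ratios were -2.14, -2.05 and -2.53. Ncl, nucleolin, had 136 CPM in spheroid cells against 910.0 in 2D monoculture, 411 in 2D co-culture and 1146 in tumor (ratio -2.74). Npm1, nucleophosmin, had 287 CPM in spheroid cells, 501 in 2D monoculture, 708 in 2D co-culture and 1095 in tumor (ratio -0.80), within 2-fold. The earlier results known when the lists were made included Utp20 and Mdn1, so the list is no independent support of them.

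DNA replication and G1/S genes had 0 of 36 higher and 21 lower, with a median of -1.23 that did not shrink with the correction (-1.38, with 25 genes lower). Pole, the catalytic subunit of polymerase epsilon, had 3.27 CPM in spheroid cells, 43.4 in 2D monoculture, 17.5 in 2D co-culture and 23.1 in tumor (ratio -3.38). Cdc6, which loads the replicative helicase, had 5.06 CPM in spheroid cells against 46.2 in 2D monoculture, 55.8 in 2D co-culture and 53.4 in tumor (ratio -2.96). Rrm1, the large subunit of ribonucleotide reductase, had 27.4 CPM in spheroid cells, 208 in 2D monoculture, 133 in 2D co-culture and 407 in tumor (ratio -2.88). The spheroid was the lowest library in all 3. Mcm2 and Pcna, part of the helicase and the clamp, had ratios of -0.49 and -0.42 and were highest in the 2D co-culture, at 811 and 682 CPM. E2f1 and Pold1 differed little, with ratios of 0.23 and 0.23.

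Mitotic genes had 0 of 40 higher and 24 lower, with a median of -1.43 (-0.99 corrected). Top2a, topoisomerase II, had 23.5 CPM in spheroid cells, 168 in 2D monoculture, 56.5 in 2D co-culture and 544 in tumor (ratio -2.78). Anln, a protein of the cleavage furrow, had 14.8 CPM in spheroid cells against 115 in 2D monoculture, 36.9 in 2D co-culture and 133 in tumor (ratio -2.88). Kif20a, a mitotic kinesin, had 8.89 CPM in spheroid cells, 68.1 in 2D monoculture, 28.4 in 2D co-culture and 79.7 in tumor (ratio -2.81). Other genes of the same list were within 2-fold. Cdk1, the mitotic kinase, had 145 CPM in spheroid cells, 135 in 2D monoculture, 221 in 2D co-culture and 239 in tumor (ratio 0.10). Cks1b, its small partner, had 194 CPM in spheroid cells against 100.1 in 2D monoculture, 262 in 2D co-culture and 172 in tumor (ratio 0.95). The corrected ratios of Cdk1 and Top2a were 0.85 and -1.70. A lower level of a cycle gene in bulk RNA can come from fewer cycling cells or from less RNA of that gene per cell, which cannot be told apart here. The mitotic list had a median GC content of 46.9% and a median transcript of 3597 bases. The part of the trend with GC content and length in its ratios was not tested.

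Inhibitors of the cycle did not move together. Cdkn1b (p27), which holds CDK2 inactive, had 262 CPM in spheroid cells, 72.5 in 2D monoculture, 109 in 2D co-culture and 107 in tumor (ratio 1.84), with a corrected ratio of 2.46. Cdkn1a (p21), the main p53 target of this kind, had 813 CPM in spheroid cells, 847 in 2D monoculture, 515 in 2D co-culture and 118 in tumor (ratio -0.06). Ccnd1, cyclin D1, had 225 CPM in spheroid cells against 389.9 in 2D monoculture, 599 in 2D co-culture and 96.2 in tumor (ratio -0.79). Among p53 and its targets, 2 of 20 genes were higher and 7 lower. Mdm2, which marks p53 for breakdown, had 47.3 CPM in spheroid cells, 203 in 2D monoculture, 101 in 2D co-culture and 65.8 in tumor (ratio -2.08). Btg2, an antiproliferative gene, had a ratio of 1.45.

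Genes of double-strand break repair and the checkpoint had 0 of 25 higher and 21 lower, the lowest median of the whole lists before the correction (-1.87, -1.14 corrected). Clspn, claspin, had 2.62 CPM in spheroid cells, 33.4 in 2D monoculture, 17.1 in 2D co-culture and 25.9 in tumor (ratio -3.25). Prkdc, the kinase DNA-PKcs, had 2.23 CPM in spheroid cells against 19.1 in 2D monoculture, 2.40 in 2D co-culture and 24.2 in tumor (ratio -2.64). Xrcc5, the Ku80 subunit, had 27.6 CPM in spheroid cells, 124 in 2D monoculture, 38.4 in 2D co-culture and 95.8 in tumor (ratio -2.12). Brca1 differed little, with 51.1 CPM in spheroid cells, 51.0 in 2D monoculture, 25.5 in 2D co-culture and 145 in tumor (ratio 0.00). Nuclear pore and karyopherin genes had 0 of 38 higher and 28 lower, with a median of -1.51 (-0.83 corrected). Nup205, of the inner ring, had 23.3 CPM in spheroid cells against 209.6 in 2D monoculture, 53.3 in 2D co-culture and 208 in tumor (ratio -3.12). Kpnb1, importin beta, had 125 CPM in spheroid cells, 702 in 2D monoculture, 441 in 2D co-culture and 372 in tumor (ratio -2.48). Chromatin regulators had 0 of 36 higher and 25 lower, and after the correction 1 higher and 9 lower. Chd4, the NuRD remodeller, kept a corrected ratio of -1.45, with 244 CPM in spheroid cells, 898 in 2D monoculture, 521 in 2D co-culture and 239.6 in tumor (ratio -1.88).

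Cytosolic chaperones gave some of the largest CPM differences on the lower side. Hspa8, the constitutive HSC70, had 1599 CPM in spheroid cells against 5372 in 2D monoculture, 1701 in 2D co-culture and 3486 in tumor (ratio -1.75). Hsp90aa1, an HSP90, had 538 CPM in spheroid cells, 2917 in 2D monoculture, 441 in 2D co-culture and 2466 in tumor (ratio -2.44). Hsph1, a partner of HSP70, had 62.5 CPM in spheroid cells, 332 in 2D monoculture, 73.7 in 2D co-culture and 140.0 in tumor (ratio -2.39). Spheroid and 2D co-culture were close in these 3 genes and below the 2D monoculture and the tumor. The stress-induced pair Hspa1a and Hspa1b was on the other side, with ratios of 1.06 and 1.17, and these near-identical genes can share reads. Over the list of 17 genes, 2 were higher and 7 lower (0 and 7 after the correction).

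Among translation factors 4 of 42 were higher and 13 lower, against 11.7% and 20.1% of all members. Eif3a, the largest subunit of eIF3, had 78.3 CPM in spheroid cells against 490.1 in 2D monoculture, 136 in 2D co-culture and 525 in tumor (ratio -2.63). Eef1a1, the elongation factor that brings tRNAs, had 4143 CPM in spheroid cells, 9077 in 2D monoculture, 5560 in 2D co-culture and 10769 in tumor (ratio -1.13). Eif4ebp1, an inhibitor of cap-dependent initiation that ATF4 also induces, had 758 CPM in spheroid cells, 304 in 2D monoculture, 359 in 2D co-culture and 151 in tumor (ratio 1.31). Eef2k, a kinase that halts elongation, had a ratio of 1.05 (2.04 corrected). In the complexes of mTOR, Mtor had 35.2 CPM in spheroid cells against 104 in 2D monoculture, 54.3 in 2D co-culture and 29.4 in tumor (ratio -1.54). Rictor had a ratio of -1.89 and Deptor, an inhibitor of the kinase, -2.56. Over 29 genes of this pathway, 4 were higher and 9 lower.

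Motor proteins were mostly lower. Of 10 motors, 0 were higher and 9 lower, with a median of -2.17, whereas of 16 tubulin, actin and actin-binding genes 0 were higher and 1 lower, with a median of 0.08. After the correction the medians were -1.28 and -0.53, with 6 motors and 2 of the other genes lower. Dync1h1, the dynein heavy chain, had 203 CPM in spheroid cells, 1622 in 2D monoculture, 301 in 2D co-culture and 221 in tumor (ratio -2.99), with a corrected ratio of -2.56. Myh9, non-muscle myosin IIA, had 173 CPM in spheroid cells, 812 in 2D monoculture, 251 in 2D co-culture and 237 in tumor (ratio -2.22), with a corrected ratio of -2.43. In the 2D co-culture all motors but Dync1li1 were below the 2D monoculture as well. Vim, the intermediate filament vimentin, had 423 CPM in spheroid cells against 2731 in 2D monoculture, 1281 in 2D co-culture and 1379 in tumor (ratio -2.69), with a corrected ratio of -3.04. Nes, nestin, had 36.5 CPM in spheroid cells, 311 in 2D monoculture, 119.8 in 2D co-culture and 41.9 in tumor (ratio -3.06), and was 1 of the 5 lowest genes after the correction (-3.12).

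Focal adhesion adaptors had 2 of 23 higher and 9 lower. Tln1, talin, which links integrins to actin, had 159 CPM in spheroid cells, 749.9 in 2D monoculture, 319 in 2D co-culture and 197 in tumor (ratio -2.23). Its paralog Tln2 had 5.90 CPM in spheroid cells against 82.2 in 2D monoculture, 34.0 in 2D co-culture and 29.7 in tumor (ratio -3.59). Flna, filamin A, had 193 CPM in spheroid cells, 864 in 2D monoculture, 547 in 2D co-culture and 294 in tumor (ratio -2.16). Vasp, an actin polymerase of adhesions, was higher, with 375 CPM in spheroid cells, 140.1 in 2D monoculture, 176 in 2D co-culture and 92.9 in tumor (ratio 1.41). Integrins split by subunit. Itgb3, the beta 3 chain, had 458 CPM in spheroid cells against 117 in 2D monoculture, 62.8 in 2D co-culture and 33.1 in tumor (ratio 1.96). Itga9 had 103 CPM in spheroid cells, 26.8 in 2D monoculture, 42.4 in 2D co-culture and 48.7 in tumor (ratio 1.91). Itgb1, the common beta 1 chain, had 189.6 CPM in spheroid cells, 546 in 2D monoculture, 397 in 2D co-culture and 789.6 in tumor (ratio -1.52). Itga6, of laminin receptors, had 36.6 CPM in spheroid cells against 106 in 2D monoculture, 118 in 2D co-culture and 41.6 in tumor (ratio -1.50). The corrected ratios were 2.13 and 2.89 for the first pair and -0.69 and -1.13 for the second.

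Genes of collagen, laminin and fibronectin were mixed. Of 44 collagen chains in the table, 7 passed the limit, 3 were higher and 0 lower, with a median of 0.75 (0.63 corrected). Col4a1, a chain of basement membrane collagen, had 220.4 CPM in spheroid cells, 43.7 in 2D monoculture, 89.3 in 2D co-culture and 291 in tumor (ratio 2.31). Its neighbour on the chromosome, Col4a2, had 105 CPM in spheroid cells, 44.3 in 2D monoculture, 70.4 in 2D co-culture and 160.4 in tumor (ratio 1.22). Col5a3 had 138 CPM in spheroid cells against 22.2 in 2D monoculture, 35.8 in 2D co-culture and 59.6 in tumor (ratio 2.58). Lama5, a laminin chain, had 247 CPM in spheroid cells, 51.2 in 2D monoculture, 60.1 in 2D co-culture and 12.9 in tumor (ratio 2.25). The spheroid was above both 2D cultures for these 4 genes, and the tumor was above the spheroid for Col4a1 and Col4a2. Lamc1 and Lama4, other laminin chains, were lower, with ratios of -1.27 and -1.88. Fn1, fibronectin, had 80.0 CPM in spheroid cells, 184 in 2D monoculture, 465 in 2D co-culture and 388 in tumor (ratio -1.19).

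Some genes that act on the matrix had large ratios. Hpse, heparanase, which cuts heparan sulfate, had 155 CPM in spheroid cells against 8.97 in 2D monoculture, 20.9 in 2D co-culture and 76.0 in tumor, a ratio of 3.97 (95% interval 4.03 to 4.19) that the correction left at 3.96. Timp3, an inhibitor of metalloproteases that binds the matrix, had 342 CPM in spheroid cells, 58.3 in 2D monoculture, 78.2 in 2D co-culture and 41.4 in tumor (ratio 2.53), with a corrected ratio of 3.28. Adam19, a metalloprotease, had a ratio of 2.15 (2.58 corrected). Adam10, the main sheddase of many receptors, had 53.8 CPM in spheroid cells, 209 in 2D monoculture, 119 in 2D co-culture and 124 in tumor (ratio -1.94). Sdc4, a syndecan of adhesions, had 93.9 CPM in spheroid cells against 30.7 in 2D monoculture, 63.8 in 2D co-culture and 42.0 in tumor (ratio 1.58). Among matricellular proteins 2 of 9 were higher and 4 lower. Sparc had 1341 CPM in spheroid cells, 2114 in 2D monoculture, 1945 in 2D co-culture and 977 in tumor (ratio -0.66). Lgals3, galectin-3, had 658 CPM in spheroid cells, 1871 in 2D monoculture, 275 in 2D co-culture and 363 in tumor (ratio -1.51).

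Of 21 genes of melanin synthesis and the melanosome, 0 were higher and 8 lower, with a median of -0.42 (-0.44 corrected). Tyrp1, an enzyme of eumelanin synthesis, had 2455 CPM in spheroid cells against 6168 in 2D monoculture, 4232 in 2D co-culture and 8948 in tumor (ratio -1.33). Dct, another, had 2986 CPM in spheroid cells, 4482 in 2D monoculture, 4246 in 2D co-culture and 5127 in tumor (ratio -0.59). Tyr, tyrosinase, differed little, with 497 CPM in spheroid cells, 506 in 2D monoculture, 534 in 2D co-culture and 864 in tumor (ratio -0.03), and was the 1 gene of the list called higher after the correction (1.13). Pmel, which forms the melanosome fibrils, had 3478 CPM in spheroid cells against 2923 in 2D monoculture, 3198 in 2D co-culture and 2208 in tumor (ratio 0.25). Of 18 genes of the melanosome matrix, transport and pH, 7 were lower. Mlph, melanophilin, which links melanosomes to a motor, had 48.8 CPM in spheroid cells, 512 in 2D monoculture, 361 in 2D co-culture and 198 in tumor (ratio -3.37). Myo5a, the myosin it recruits, had 54.4 CPM in spheroid cells, 367 in 2D monoculture, 61.8 in 2D co-culture and 313 in tumor (ratio -2.73). Mlph had the lowest corrected ratio of all members (-3.71), and the 95% interval of its ratio before the correction was -3.43 to -3.36. Gpnmb, a melanosomal glycoprotein, had 4624 CPM in spheroid cells against 10390 in 2D monoculture, 5483 in 2D co-culture and 1772 in tumor (ratio -1.17), the largest CPM difference on the lower side.

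Of the regulators of the lineage, Mitf, the master factor of melanocytes, had 70.3 CPM in spheroid cells, 416 in 2D monoculture, 223 in 2D co-culture and 708 in tumor (ratio -2.55), with a corrected ratio of -1.92. Sox10, which acts upstream of it, differed little, with 902 CPM in spheroid cells, 834 in 2D monoculture, 871 in 2D co-culture and 237 in tumor (ratio 0.11). Axl, a receptor kinase known from melanoma cells of low Mitf, had 74.0 CPM in spheroid cells against 18.2 in 2D monoculture, 56.0 in 2D co-culture and 65.3 in tumor (ratio 1.96). Mcam, an adhesion molecule, had 56.6 CPM in spheroid cells, 384 in 2D monoculture, 355 in 2D co-culture and 107 in tumor (ratio -2.74). Met, the receptor of hepatocyte growth factor, had 172 CPM in spheroid cells, 652 in 2D monoculture, 167 in 2D co-culture and 920.5 in tumor (ratio -1.91). Zeb2 had a ratio of -1.73 and Cdh2, N-cadherin, -1.82. Of 13 regulators and receptors in all, 1 was higher and 5 were lower. The spheroid was the lowest library for Mitf, while Tyr and Pmel, known targets of the factor, were within 2-fold of the 2D monoculture. Other melanocyte markers lay on either side of that limit. Mlana, Mc1r and Tyrp1 were over 2-fold lower (ratios -1.95, -1.38 and -1.33), whereas Dct, Slc45a2 and Gpr143 were within 2-fold (-0.59, -0.14 and 0.07).

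**Figure D5:**
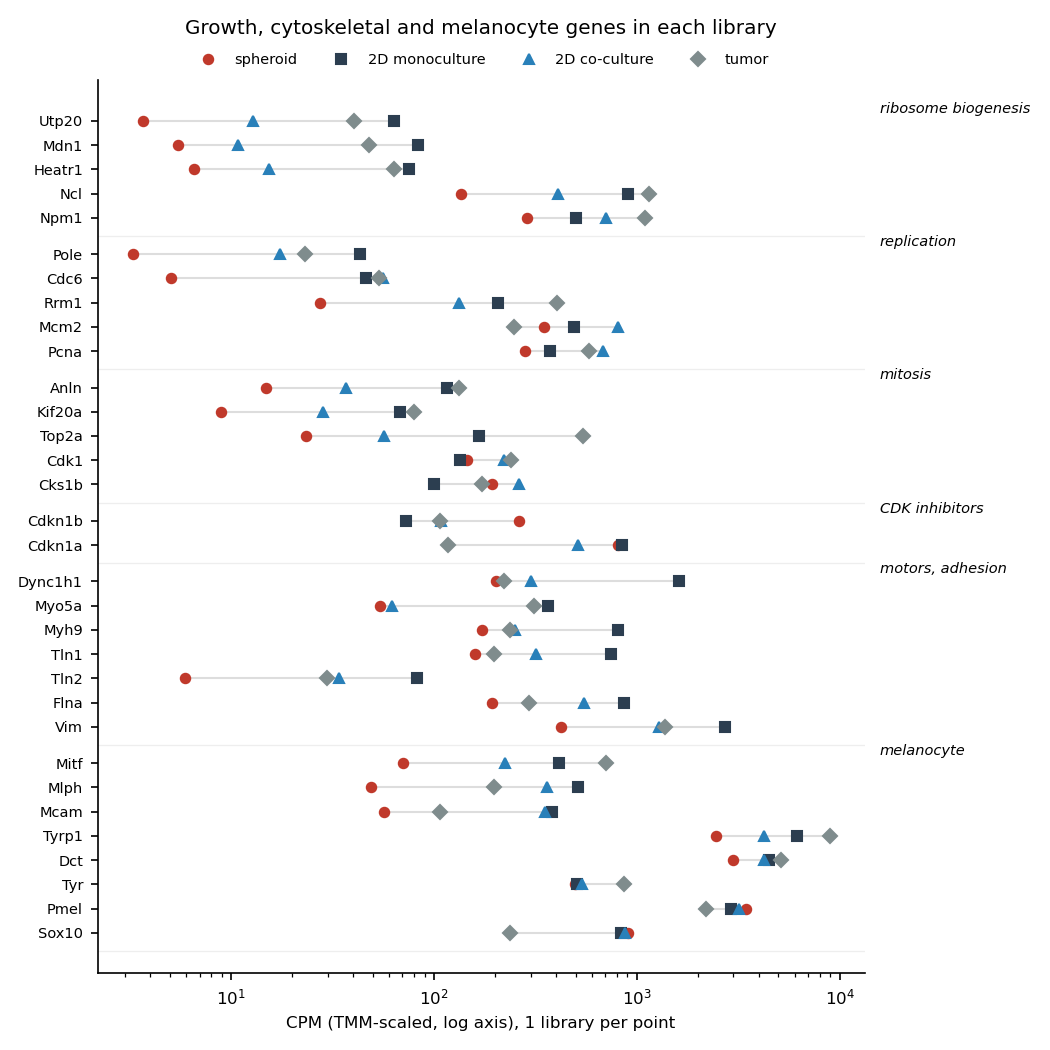
CPM (horizontal, log axis) of genes of growth, the cytoskeleton and the melanocyte lineage in the 4 libraries, 1 point per library. The spheroid is the lowest library for Utp20, Mdn1, Pole, Cdc6, Anln and Mitf, whereas Tyr, Sox10 and Cdkn1a have the spheroid and the 2D monoculture close together.

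MHC class I and immunoproteasome genes had 6 of 11 higher and 0 lower, with a median of 1.17 that went to 0.49 with the correction. After it, 2 were higher and 0 lower. Of the list genes under the limit, Psmb8 and Psmb9 of the immunoproteasome had 0.051 and 0.764 CPM in spheroid cells against 0.014 and 0.239 in 2D monoculture. H2-T23 had 5.58 CPM against 2.87. Erap1, Nlrc5 and Tapbpl were lower in spheroid cells (1.73, 0.433 and 6.32 CPM against 6.91, 1.03 and 9.71). H2-K1, a class I heavy chain, had 191 CPM in spheroid cells against 44.1 in 2D monoculture, 34.6 in 2D co-culture and 550.4 in tumor (ratio 2.09). Tap2, of the peptide transporter, had 27.3 CPM in spheroid cells, 7.02 in 2D monoculture, 11.1 in 2D co-culture and 27.1 in tumor (ratio 1.82). B2m, the light chain, had 423 CPM in spheroid cells, 274 in 2D monoculture, 351 in 2D co-culture and 1727 in tumor (ratio 0.63), under 2-fold. Heavy chain genes are near-identical in part and can share reads. Of 27 genes stimulated by interferon in the table, 11 passed the limit. These were split, 4 higher and 4 lower (2 and 2 after the correction). Most of the list genes under the limit were lower in spheroid cells. Ifit1, Ifit3, Parp14 and Ifih1 had 2.76, 3.64, 1.41 and 3.57 CPM against 10.5, 7.87, 6.49 and 11.8 in 2D monoculture. Irf1, Irf7 and Rtp4 were higher (10.9, 1.64 and 5.09 CPM against 8.47, 0.744 and 2.48), and Irf9 and Ifi44 differed little. Bst2, tetherin, had 119.8 CPM in spheroid cells against 28.9 in 2D monoculture, 57.0 in 2D co-culture and 148 in tumor (ratio 2.01). Ifit2 had 17.0 CPM in spheroid cells, 52.5 in 2D monoculture, 27.1 in 2D co-culture and 90.0 in tumor (ratio -1.57). The NF-kB pathway had genes on both sides too, 3 of 14 higher and 4 lower (1 and 1 after the correction). Its median went from 0.19 to -0.21 with the correction. Relb, a subunit, had 90.7 CPM in spheroid cells, 23.3 in 2D monoculture, 19.1 in 2D co-culture and 11.04 in tumor (ratio 1.92). Nfkbia, an inhibitor and a target, had 42.5 CPM in spheroid cells against 17.3 in 2D monoculture, 31.8 in 2D co-culture and 40.3 in tumor (ratio 1.25). Ikbkb, the kinase, had 14.8 CPM in spheroid cells, 46.9 in 2D monoculture, 18.8 in 2D co-culture and 28.6 in tumor (ratio -1.60).

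Of 22 genes of TGF-beta signalling, 3 were higher and 3 lower, against 11.7% and 20.1% of all members. The ligands Tgfb1 and Tgfb3 were among the higher ones. Tgfb1 had 83.3 CPM in spheroid cells, 24.9 in 2D monoculture, 23.9 in 2D co-culture and 25.6 in tumor (ratio 1.70). Tgfb3 had 156 CPM in spheroid cells against 55.8 in 2D monoculture, 30.4 in 2D co-culture and 15.8 in tumor (ratio 1.47). Id3, a target of BMP signals, had 13.9 CPM in spheroid cells, 59.3 in 2D monoculture, 58.3 in 2D co-culture and 19.6 in tumor (ratio -2.01). Of 20 Wnt genes 6 were higher and 3 lower. Tcf7, a factor of the pathway, had 37.5 CPM in spheroid cells, 5.69 in 2D monoculture, 15.9 in 2D co-culture and 7.29 in tumor (ratio 2.52). Ctnnb1, beta-catenin, had 413 CPM in spheroid cells against 1249 in 2D monoculture, 1339 in 2D co-culture and 1585 in tumor (ratio -1.59). Apc, which marks it for breakdown, had 9.85 CPM in spheroid cells, 77.9 in 2D monoculture, 15.2 in 2D co-culture and 57.9 in tumor (ratio -2.86). The corrected ratios of the last pair were -1.45 and -1.47.

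In lipid metabolism Abca1, which exports cholesterol, had the lowest ratio of all members (-3.99, 95% interval -4.50 to -4.22), with 3.19 CPM in spheroid cells, 65.5 in 2D monoculture, 11.2 in 2D co-culture and 51.6 in tumor. Acaca, the rate-limiting enzyme of fatty acid synthesis, had 14.3 CPM in spheroid cells against 78.1 in 2D monoculture, 23.6 in 2D co-culture and 58.3 in tumor (ratio -2.37). Srebf2, the factor of cholesterol genes, had 574 CPM in spheroid cells, 274 in 2D monoculture, 362 in 2D co-culture and 131 in tumor (ratio 1.06), over 2-fold higher. The synthesis enzymes for cholesterol had 1 of 20 higher and 5 lower, against 11.7% and 20.1% of all members.

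The 5 highest ratios were those of Fxyd1, Rasd2, Ptgir, Hpse and Cort. Fxyd1, a regulator of the sodium pump, was highest (4.36), with 37.1 CPM in spheroid cells, 0.856 in 2D monoculture, 2.65 in 2D co-culture and 27.9 in tumor. Its 122 reads in the 2D monoculture set the 95% interval of 5.18 to 5.71. Rasd2, a small GTPase known from the striatum, had 79.7 CPM in spheroid cells against 3.29 in 2D monoculture, 6.18 in 2D co-culture and 7.56 in tumor (ratio 4.23). Ptgir, the prostacyclin receptor, had 32.0 CPM in spheroid cells, 0.884 in 2D monoculture, 2.19 in 2D co-culture and 3.33 in tumor (ratio 4.13). Cort, the neuropeptide cortistatin, had 44.2 CPM in spheroid cells, 1.97 in 2D monoculture, 4.60 in 2D co-culture and 18.7 in tumor (ratio 3.93). Aire, known as the autoimmune regulator of the thymus, had 59.96 CPM in spheroid cells against 3.50 in 2D monoculture, 6.25 in 2D co-culture and 34.4 in tumor (ratio 3.76). Pygm, the muscle form of glycogen phosphorylase, had 80.8 CPM in spheroid cells, 6.02 in 2D monoculture, 5.60 in 2D co-culture and 165 in tumor (ratio 3.54). Skeletal muscle markers summed to 4599 CPM in tumor, 12.4 in spheroid cells and 3.28 in 2D monoculture. Trib2, a relative of Trib3, had 27.5 CPM in spheroid cells, 2.37 in 2D monoculture, 15.4 in 2D co-culture and 9.38 in tumor (ratio 3.08), and its corrected ratio of 3.46 was among the 5 highest. The synaptic genes Nrxn2 and Nlgn2 had ratios of 2.45 and 2.41.

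Of the genes of lowest ratio not yet named, Serpinb9b, a serpin, had 1.18 CPM in spheroid cells against 26.7 in 2D monoculture, 1.96 in 2D co-culture and 0.992 in tumor (ratio -3.67). Ppm1e, a phosphatase, had 3.41 CPM in spheroid cells, 41.3 in 2D monoculture, 3.28 in 2D co-culture and 3.36 in tumor (ratio -3.26). Sptan1, alpha spectrin, had 48.2 CPM in spheroid cells, 588 in 2D monoculture, 65.8 in 2D co-culture and 338 in tumor (ratio -3.58). Hspb7, a small heat shock protein, had 11.7 CPM in spheroid cells against 69.3 in 2D monoculture, 7.398 in 2D co-culture and 111 in tumor (ratio -2.46), with a corrected ratio of -3.10. Serpinb9b and Ppm1e were thus high in the 2D monoculture alone, and how far that library stands apart from another culture of the same kind was not tested.

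Most of the remaining lists had genes on both sides, to be read beside 11.7% higher and 20.1% lower over all members. The BCL2 family, which sets the threshold for apoptosis, had 2 of 12 genes higher and 0 lower (median 0.37). ABC transporters had 3 of 23 genes higher and 11 lower (median -0.74, -0.44 corrected), Abca1 being the lowest. Genes of Gq, adenylyl cyclase and protein kinase C signalling had 2 of 15 genes higher and 1 lower, with a median that went from -0.12 to 0.31 with the correction. Genes of the mesenchymal and phenotype switch had 3 of 9 genes higher and 4 lower. Matrix proteases and their inhibitors had 4 of 14 genes higher and 4 lower. Integrins and laminins together had 4 of 13 genes higher and 4 lower. Autophagy genes had 3 of 22 genes higher and 3 lower (0 and 3 after the correction), with a median of 0.07 that has no direction under all scalings. Enzymes that hydroxylate and crosslink collagen had 1 of 14 genes higher and 0 lower, with a median that went from 0.51 to 0.02.

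Of 5 long non-coding RNAs, 2 were higher and 0 lower (3 and 0 after the correction). Neat1, the scaffold of paraspeckles, had 344 CPM in spheroid cells, 108 in 2D monoculture, 143 in 2D co-culture and 303 in tumor (ratio 1.66). Malat1, which lies next to it on the chromosome, had 254 CPM in spheroid cells, 369 in 2D monoculture, 139.6 in 2D co-culture and 359 in tumor (ratio -0.54). Gas5 and Snhg12, hosts of small nucleolar RNAs, had ratios of 0.73 and 1.54. At the limit of 10 CPM, the members just inside were Poli (ratio -0.18), Id1 (0.30) and Xpo4 (-2.24), and those just outside were B230354K17Rik (-2.79), Hspa12b (0.23) and Cdk5rap1 (-1.62).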

How the data were processed

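Each of the 4 libraries was one sample of its condition, so groups were 1 library each. The authors deposited one table of raw read counts per gene symbol, made with Trimmomatic, STAR and featureCounts on mm10 per the submitters' processing notes. Tool versions, strand use and the treatment of reads matching several places: not given in the sources used here. Counts were scaled to CPM with TMM factors over the 4 libraries (R 4.3.3, edgeR 4.0.16), and 1 CPM was added before log2. No test was run, since 1 library a side has no residual degree of freedom. Intervals are exact binomial (Clopper-Pearson) intervals of read counts at 95% (scipy 1.17.1) and cover counting error only.

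GC content and length came from the longest GENCODE M21 transcript of 9250 members, a protein-coding one where the gene has any (99.8%, of which 156 were matched by an older symbol). Corrected ratios are ratios minus the median of 1 of 100 classes of GC content and length. Promoters came from RefSeq (GRCm38.p6). The scripts were tested on simulated counts.

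Members and the 57 gene lists were chosen with earlier results of these data known, so no list supports a pattern independently. Named genes were the 12 highest and 12 lowest ratios, the 8 largest CPM differences on each side, the 5 highest and 5 lowest corrected ratios, the 3 genes on each side of the level limit and, of each list, the 3 highest and 3 lowest ratios and the 3 of highest level, or all where a list or role had up to 8 members, and of these only a selection was printed. Markers, genes under the limit and other holders of a motif stand outside this rule. The alternatives were other scaling factors, pseudocounts, level limits and corrections, given in the closing section. A few genes of these lists are not reported here.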

Additional observations from a re-analysis of the deposited data

How the results depend on the processing

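Of the 12 alternatives tried, none removed the excess of lower over higher genes. At a limit of 50 CPM on the mean, 547 were higher and 709 lower, and with GC content and length removed 1080 were lower. With every gene that had a read, the median absolute ratio was 0.371. Spearman's correlation with GC content was -0.0048 with GC classes removed and -0.0076 with GC by length classes removed. That with transcript length was 0.010 with length classes removed and -0.0014 with both, all 4 by construction. With the limit at 50 CPM the medians of serpins (0.095), replication-dependent histones (0.21) and neuronal and secretory type genes (-0.25) had the opposite sign, and fewer genes were then left in each list. Of 672 list medians recomputed over 56 lists, 51 had the other sign, in 18 lists, and 3 of these were medians beyond 1.5-fold, those just named. The rest were medians nearer to 0 than 0.46, which have no firm direction. Of the ratios of 202 named genes under these alternatives, 54 values had the other sign, in 24 genes, and 0 of these genes was over 2-fold. Of the 54 values, 3 belonged to ratios beyond 1.5-fold. With GC by length classes removed, 102 of the 202 ratios moved by more than 1.5-fold and 100 did not. No paired analysis was possible because no group has more than 1 library, and no replicate could be left out, so how far a ratio would vary between cultures was not measured.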
